A study of Rattus norvegicus with 20 samples.

Results

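The 8 normal mammary tissues of the series were ranked by their epithelial signal, and the 4 highest were compared with the 4 lowest. Each tissue was scored by the mean of 3 genes of simple epithelia: Krt8 and Krt18, the paired keratins of luminal cells, and Epcam, an adhesion molecule of epithelial cell membranes. The members of each set were thus chosen by the measured levels of these 3 genes. The score was taken on the log2 processed signal minus the 75th percentile of the array, with the brightest probe of each gene. These 8 tissues were the members, out of 20 samples in all. The other 12 were mammary adenocarcinomas and served as a reference for levels. They also entered the quantile normalization, the choice of the brightest probe of each score gene and 1 alternative fit. Each value below comes from 1 array per tissue, hybridised with Cy3-labelled RNA on a 1-colour whole-genome rat array.

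All tissues came from female Sprague-Dawley (Jcl:SD) rats that had received 4 Gy of Cs-137 gamma rays to the whole body, at 0.5 Gy per minute, at 7 weeks of age, and that were then followed for 30 weeks. No unirradiated tissue was analysed here. Rats called obesity-prone (OP) or obesity-resistant (OR) by body weight at irradiation ate a diet with 45 kcal% fat, and lean controls (LC) ate one with 10 kcal% fat. The epithelium-rich set held LC normal 2, OP normal 3, OR normal 1 and OP normal 1. The epithelium-poor set held OR normal 2, OP normal 2, LC normal 3 and LC normal 1. The sets were thus 1 against 2 LC, 2 against 1 OP and 1 against 1 OR tissues, so neither set stood for a diet. The labels call the rats age-matched, but do not say which gland was taken or whether a rat also bore a tumour.

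The mammary gland is a branched epithelium within a fat pad. Luminal cells line the ducts and make milk proteins, contractile myoepithelial cells surround them, and adipocytes, fibroblasts, vessels and immune cells make up the pad. A lymph node lies in the inguinal pad, and skeletal muscle lies beneath it. In RNA from whole tissue, fewer cells of a type and less RNA per cell cannot be told apart.

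The scores fell off unevenly. In order they were 5.30 in LC normal 2, 5.18 in OP normal 3, 4.70 in OR normal 1 and 4.54 in OP normal 1, and then 4.41 in OR normal 2, 4.30 in OP normal 2, 3.43 in LC normal 3 and 1.98 in LC normal 1. The last tissue inside the epithelium-rich set and the first outside it were 0.126 log2 units apart, so OP normal 1 and OR normal 2 lay close together on either side of the cut. LC normal 1 and LC normal 3 lay clearly below the other 6. Epcam ranged from 4.02 in LC normal 2 to 0.11 in LC normal 1, Krt8 from 3.19 to 0.34 in the same tissues, and Krt18 from 8.68 in OP normal 3 to 5.49 in LC normal 1. All 12 cancers scored higher than all 8 normal tissues, from 5.93 to 6.91. These values chose the sets and are a description only; all probes of the 3 genes were taken out of the tests. Scored after quantile normalization, OP normal 2 moved into the higher set and OP normal 1 out of it, so 6 of 8 tissues stayed on their side.

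**Figure D1:**
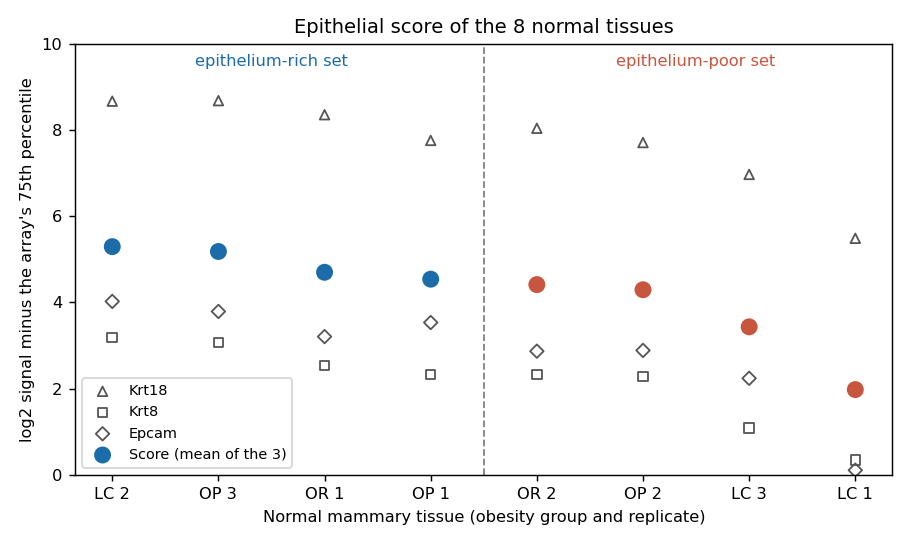
The epithelial score of the 8 normal tissues (filled circles; blue, epithelium-rich set; red, epithelium-poor set) and the 3 genes it averages (open symbols), on the log2 scale relative to the 75th percentile of each array, 1 array per tissue. The dashed line marks the cut, with 4.54 on one side and 4.41 on the other, and LC normal 1 stands lowest at 1.98.

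A pair of lean-control tissues stood apart from the rest on more than the score. LC normal 3 had the lowest correlations with the other arrays, 0.934 to 0.964, and the highest levels of lymphoid genes. LC normal 1 had the highest mean level of the adipocyte and matrix lists and the lowest level of ribosomal protein genes. Both belonged to the epithelium-poor set, so values without them are given beside the results they touch. The 8 arrays lay on 3 slides that each held both sets, and all had been scanned on 1 day. Slide 1 held OP normal 1 and LC normal 1 alone among them. For a gene without overlap, the differences within slides given below share their sign by construction. The share of probes well above background was 93.5% ± 1.44 (SD, n = 4) in the epithelium-rich set and 94.8% ± 4.65 (SD, n = 4) in the other, with a two-sided exact permutation p of 0.657 (smallest possible 0.0286). LC normal 3 was at 87.9%, and without it the difference was -3.55 percentage points, with an exact p of 0.0286, the smallest that split allows.

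No gene passed the test between the sets. Of 37189 genes tested (8329 with a symbol), 0% had an adjusted p under 0.05 in limma with Benjamini-Hochberg adjustment, and the smallest adjusted p was 0.678. Each probe without a symbol was counted as a gene of its own. Counts and shares of all genes thus mix genes and single probes, and several such probes can stand for the same gene. At an unadjusted p under 0.05 there were 2054 genes (5.52%), with 1272 higher (3.42%) and 782 lower (2.1%) in the epithelium-rich set. The median difference over all genes was -0.02 on the log2 scale. At the median standard error, the 95% interval of a single gene reached 0.335 to either side. The split between higher and lower depended on the scaling: 733 of the 1755 genes at that unadjusted p were higher with the processed signal minus the 75th percentile, 1305 of 1713 with normexp values scaled the same way, and 1014 of 1367 with the authors' deposited values. The processed-signal scaling also moved the median of all genes to -0.22. Differences and signs given on that scale are raw, without that median taken off, and are to be set against it. Below, levels and differences are on the quantile-normalized log2 intensity scale, and no gene is said to have risen or fallen between the sets, since none passed. Counts of members without overlap between sets are set against 1.96% of all genes higher and 1.57% lower. A gene without overlap here overlaps with the sets drawn on the quantile scale, since OP normal 1 and OP normal 2 then change places.

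Luminal genes had mostly higher values in the epithelium-rich set. Of 18 tested luminal and junction genes, 17 had a higher value there, 8 of them at an unadjusted p under 0.05. The sets did not overlap for 3 (St14, Cldn3 and Cldn7). With the sets drawn on the quantile scale all 3 overlapped, as any such gene must. The sets were chosen by 3 epithelial genes, so this direction is a description only. The median difference was 0.87, against -0.02 over all genes. The list mean was 10.90 in LC normal 2, 11.06 in OP normal 3, 10.98 in OR normal 1 and 10.90 in OP normal 1, and then 10.82 in OR normal 2, 10.79 in OP normal 2, 9.71 in LC normal 3 and 9.15 in LC normal 1. The upper 6 tissues thus differed by little, and the 2 lean-control tissues at the bottom carried most of the difference: without them the median was 0.21. In cancers the list mean ran from 11.35 to 12.18, above every normal tissue.

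Among these genes, Cldn7, a claudin of tight junctions, was 10.63, 10.19, 9.79 and 10.33 in the epithelium-rich set (in the order of the score) and 9.74, 9.74, 9.14 and 7.03 in the other. Its sets did not overlap, with a difference of 1.32 (SE 0.59), and LC normal 1 had by far the lowest value. St14, the membrane serine protease matriptase, was 8.96, 9.24, 8.83 and 9.29 against 8.71, 8.39, 7.91 and 6.86, a difference of 1.11 (SE 0.37; limma adjusted p = 0.815). Again the lowest 2 values were those of LC normal 3 and LC normal 1. Erbb3, a receptor of the EGF receptor family, and Prom2, a membrane protein of epithelial protrusions, differed by 0.33 and 0.56 (both adjusted p = 0.815), with overlap. The level of Erbb3 was low, 6.65 to 7.33. Aldh1a3, an enzyme of retinoic acid synthesis, was the single member with a lower value, -0.18.

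Epithelial transcription factors followed the luminal genes only in part. All 7 tested had a higher mean value in the epithelium-rich set, with a median of 0.35; 1 had an unadjusted p under 0.05. That was Elf3, an ETS factor of epithelia, with a difference of 0.35 (SE 0.10) and no overlap. Its level was low, 6.57 to 7.20, close to olfactory receptor list means of 6.53 to 6.67. Tfap2c, an AP-2 factor, differed by 1.21 (SE 0.66), with 9.5 in LC normal 3 and 8.19 in LC normal 1 against 10.93 to 11.45 in the other 6 tissues. Gata3, a factor of luminal cell identity, was lowest in the tissue with the highest score, 7.73 in LC normal 2. Without LC normal 1 and LC normal 3 the median of the list was -0.16.

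Milk genes varied widely among the tissues. Casein genes lie in a cluster on rat chromosome 14 and are known targets of STAT5, the transcription factor activated by prolactin. To show what these genes share upstream, the 250 bases before the RefSeq start of the 3 cluster members that were measured and hold a STAT5-type motif are printed 5′ to 3′ in the direction of the gene (RefSeq, build GRCr8), with the motif TTCNNNGAA in capitals. This motif reads the same on both strands, so 1 search covers both.
Csn1s1, chr14:20638850-20639099, minus strand: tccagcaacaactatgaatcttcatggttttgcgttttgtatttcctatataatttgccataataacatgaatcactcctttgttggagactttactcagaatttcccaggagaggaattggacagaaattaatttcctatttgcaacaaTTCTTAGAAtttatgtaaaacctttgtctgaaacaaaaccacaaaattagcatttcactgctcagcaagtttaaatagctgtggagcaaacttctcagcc
Csn2, chr14:20601574-20601823, plus strand: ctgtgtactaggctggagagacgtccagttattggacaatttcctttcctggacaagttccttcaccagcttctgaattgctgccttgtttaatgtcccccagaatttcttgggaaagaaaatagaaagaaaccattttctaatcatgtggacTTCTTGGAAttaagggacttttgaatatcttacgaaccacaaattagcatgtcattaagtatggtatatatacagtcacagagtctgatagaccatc
Csn1s2b, chr14:20545619-20545868, minus strand: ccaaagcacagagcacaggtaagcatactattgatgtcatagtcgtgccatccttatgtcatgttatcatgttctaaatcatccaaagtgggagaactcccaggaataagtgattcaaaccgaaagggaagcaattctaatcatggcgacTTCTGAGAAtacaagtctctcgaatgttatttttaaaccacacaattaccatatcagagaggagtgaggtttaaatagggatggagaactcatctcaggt
The first base of the motif lay 100 bases before the start in Csn1s1, 97 in Csn2 and 100 in Csn1s2b. The fourth match among the 5 casein genes looked up was in Csn1s2a, which was not among the genes tested, and the window of Csn3 held no match. Of 33469 promoters of this length, 7.67% hold the motif. A match describes these letters and is no evidence of binding.

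The measured caseins did not move as a block. Csn1s1, the alpha-S1 casein gene, was 17.81, 17.50, 15.80 and 16.46 in the epithelium-rich set and 16.68, 15.17, 14.62 and 12.55 in the other. Its sets overlapped, with a difference of 2.13 (SE 0.86; limma adjusted p = 0.815). Csn2, the beta-casein gene, spanned a wide range: 15.29 in LC normal 2, 14.45 in OP normal 3, 8.67 in OR normal 1, 12.07 in OP normal 1, 11.46 in OR normal 2, 8.74 in OP normal 2, 10.22 in LC normal 3 and 7.49 in LC normal 1. OR normal 1 was low although its score ranked 3 of 8, and the difference of 3.14 had an SE of 1.51. Csn1s2b stayed between 6.85 and 7.16 in all 8 tissues. That is close to the olfactory receptor reference, whose signals lie near the floor (list means 6.53 to 6.67), so a change may not be visible.

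Csn3, the kappa-casein gene that stabilises micelles, was 16.66 to 17.45 in the epithelium-rich set and 14.06 to 17.13 in the other, a difference of 1.44 (SE 0.61; adjusted p = 0.815). Lalba, the alpha-lactalbumin subunit of lactose synthase, was 17.05 to 17.91 and 14.22 to 17.34. Wap, the whey acidic protein, was 15.39 in LC normal 2 and 8.34 in LC normal 1. Glycam1, a mucin-like secreted protein, was 17.56 in LC normal 3 and 7.24 in LC normal 1, both of the epithelium-poor set. Cel, a milk lipase, had a small difference of 0.41 (SE 0.13) without overlap, at low levels of 6.63 to 7.49. Over the list, 11 of 14 genes had a higher value, 3 at an unadjusted p under 0.05, with a median of 1.09. Without LC normal 1 and LC normal 3 that median was 0.20. In cancers the list mean ran from 8.84 to 13.08, across the range of the normal tissues.

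Myoepithelial and basal genes also had higher values in the epithelium-rich set: 9 of 10, with 4 at an unadjusted p under 0.05, 3 without overlap and a median of 0.78. Krt17, a basal keratin, was 7.89, 8.38, 8.27 and 8.52 in the epithelium-rich set and 7.58, 7.34, 6.98 and 6.86 in the other. The sets did not overlap, and the difference was 1.08 (SE 0.19; adjusted p = 0.815), with 1.66, 0.74 and 1.1 on slides 1, 2 and 3. Tagln, the actin-binding protein transgelin, was 13.27 to 13.40 against 12.89, 13.05, 12.31 and 11.83, a difference of 0.83 (SE 0.25). Snai2, the zinc-finger factor Slug, differed by 0.31 (SE 0.06), within a low range of 6.74 to 7.14. That is close to olfactory receptor list means of 6.53 to 6.67. The basal keratins Krt5 and Krt14 separated the 2 low lean-control tissues from the other 6 rather than the sets. Krt5 was 10.77 to 11.42 in those 6 tissues, 8.99 in LC normal 3 and 8.44 in LC normal 1, and its difference on slide 2 was 0.00. Krt14 was 12.50 and 12.23 in those 2 tissues and at least 13.92 elsewhere. Itgb4, a hemidesmosome integrin, differed by 0.13, and Oxtr, the oxytocin receptor, by -0.24. Without LC normal 1 and LC normal 3 the median of the list was 0.20.

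Hormone and growth factor genes gave smaller differences. Of 10 genes of the steroid and prolactin response, 8 had a higher value, with a median of 0.32; 2 had an unadjusted p under 0.05. These were Stat5b, a transcription factor below the prolactin receptor, at 0.32 (SE 0.11), and Socs2, a feedback inhibitor of that pathway, at 0.49 (SE 0.17). Both were smaller with the sets drawn on the quantile scale, Stat5b at 0.16 and Socs2 at 0.033. Cited1, an oestrogen-response cofactor, was 0.77 (SE 0.56). Pgr, the progesterone receptor, differed by 0.14 and was well above background on 7 of 8 arrays (4 and 3). The probe of Esr1, the oestrogen receptor, did not pass the filter on background and spot marks. Of 10 EGF receptor family genes, 6 had a higher value, 2 at an unadjusted p under 0.05 and 1 in the lower direction, with a median of 0.05 (-0.09 without LC normal 1 and LC normal 3). Btc, a ligand of the EGF receptor, was the lower one, at -0.31 (SE 0.12). Erbb2 was 8.38 to 8.66 in the epithelium-rich set and 7.58 to 8.20 in the other, a difference of 0.50 (SE 0.15; adjusted p = 0.815) without overlap.

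**Figure D2:**
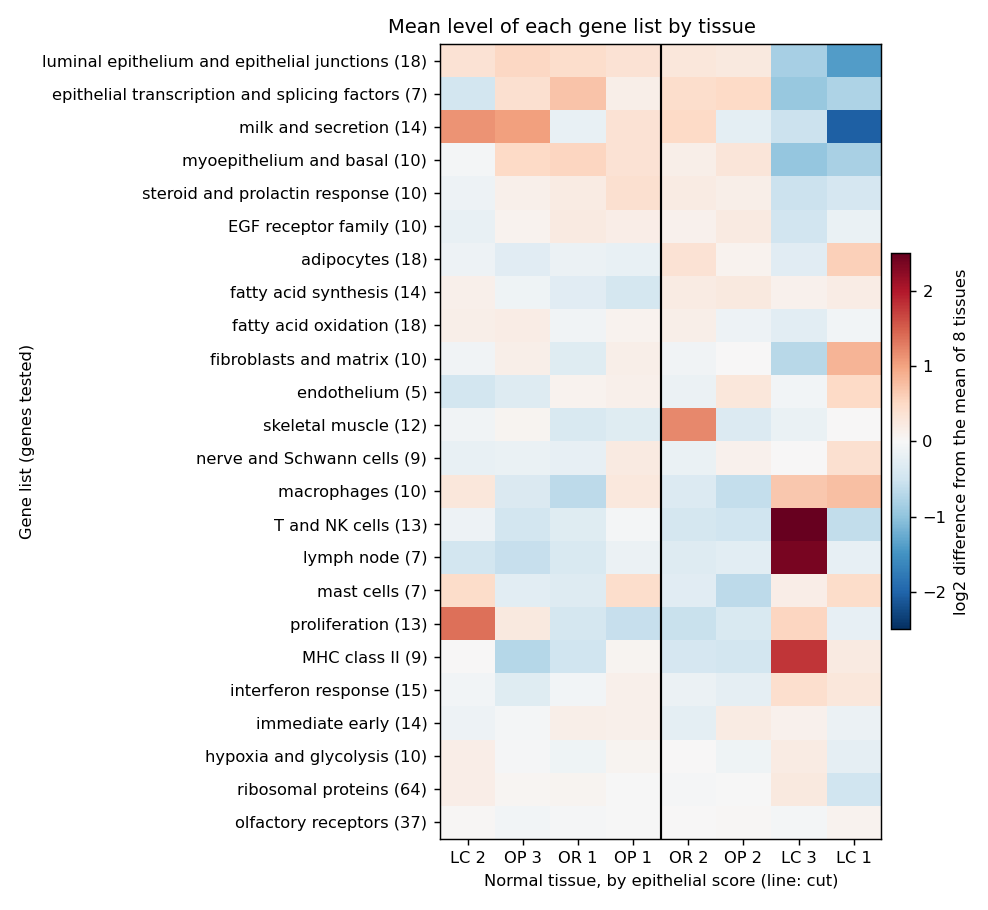
Mean level of each gene list (rows, with the number of genes tested; lists of 5 or more) in the 8 normal tissues (columns, in order of the score), as the log2 difference from the mean of the 8 tissues. The luminal row drops in LC normal 3 and LC normal 1, the T cell and lymph node rows stand out in LC normal 3, and skeletal muscle stands out in OR normal 2.

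Adipocyte genes had mostly lower values in the epithelium-rich set. Of 18 tested, 16 had a lower value, 2 at an unadjusted p under 0.05 and 0 without overlap, with a median of -0.45 (-0.29 without LC normal 1 and -0.47 without LC normal 1 and LC normal 3). The list mean was 11.91 to 12.06 in the epithelium-rich set and 12.56 in OR normal 2, 12.29 in OP normal 2, 11.90 in LC normal 3 and 12.80 in LC normal 1. LC normal 3 thus had low values for both epithelial and adipocyte genes. Dgat2, the last enzyme of triglyceride synthesis, was 14.14, 14.08, 14.45 and 14.35 against 15.53, 15.31, 14.16 and 15.47, a difference of -0.86 (SE 0.30; adjusted p = 0.815). Lpl, lipoprotein lipase, and Gpd1, which makes glycerol 3-phosphate, differed by -0.51 and -0.47. Adipoq, the adipokine adiponectin, differed by -0.46 (SE 0.28), with its highest value, 16.20, in LC normal 1. The probe of Lep did not pass the filter. Of the 3 brown fat genes tested, all had a lower value (median -0.16). Ppargc1a, a coactivator of mitochondrial genes, was at -0.16, with low levels of 6.59 to 7.00.

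Among genes with a symbol and a lower value in the epithelium-rich set, Fasn, the fatty acid synthase, had the smallest p. It was 14.73, 14.98, 15.04 and 14.36 in the epithelium-rich set and 15.71, 15.99, 15.40 and 15.75 in the other. The sets did not overlap, the difference was -0.94 (SE 0.18; limma adjusted p = 0.815), and it was -1.39, -1.1 and -0.58 on the 3 slides. A further Fasn probe gave -0.92. Scd, the delta-9 desaturase, was 15.44, 13.78, 12.89 and 11.33 against 15.25, 16.19, 15.43 and 15.79, a difference of -2.31 (SE 0.78). LC normal 2, with the highest score, lay among the epithelium-poor tissues for Scd, and OP normal 1 was far below all others. Acaca, the carboxylase that feeds Fasn, differed by -0.42 (SE 0.14). Of the 14 genes of fatty acid synthesis, 10 had a lower value, 5 of them at an unadjusted p under 0.05, with a median of -0.16. With the sets drawn on the quantile scale, Fasn differed by -0.12 and its sets overlapped, Acaca by -0.14 and Dgat2 by -0.38. Scd, Lpl and Gpd1 changed sign where the sets were drawn on the quantile scale, at 0.12, 0.10 and 0.052, since OP normal 1 and OP normal 2 then change places.

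Fatty acid oxidation genes were split: 11 of 18 had a higher value, 6 at an unadjusted p under 0.05 (and 1 in the lower direction), with a median of 0.18. Acaa2, the mitochondrial thiolase, was 12.69, 12.86, 11.65 and 12.70 against 11.72, 11.47, 10.94 and 11.35, a difference of 1.1 (SE 0.29; adjusted p = 0.815). OR normal 1 overlapped the other set. Acadl, the long-chain acyl-CoA dehydrogenase, differed by 0.63 (SE 0.19), and Ehhadh, the peroxisomal bifunctional enzyme, by 0.37 (SE 0.13) without overlap. The level of Ehhadh was low, 6.30 to 7.17. Cpt1b, the muscle and brown fat carnitine palmitoyltransferase, was at -0.87, while its other probe gave 0.18, so its direction is not settled. The list median was 0.52 with the authors' deposited values and 0.00 with sets drawn on the quantile scale.

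**Figure D3:**
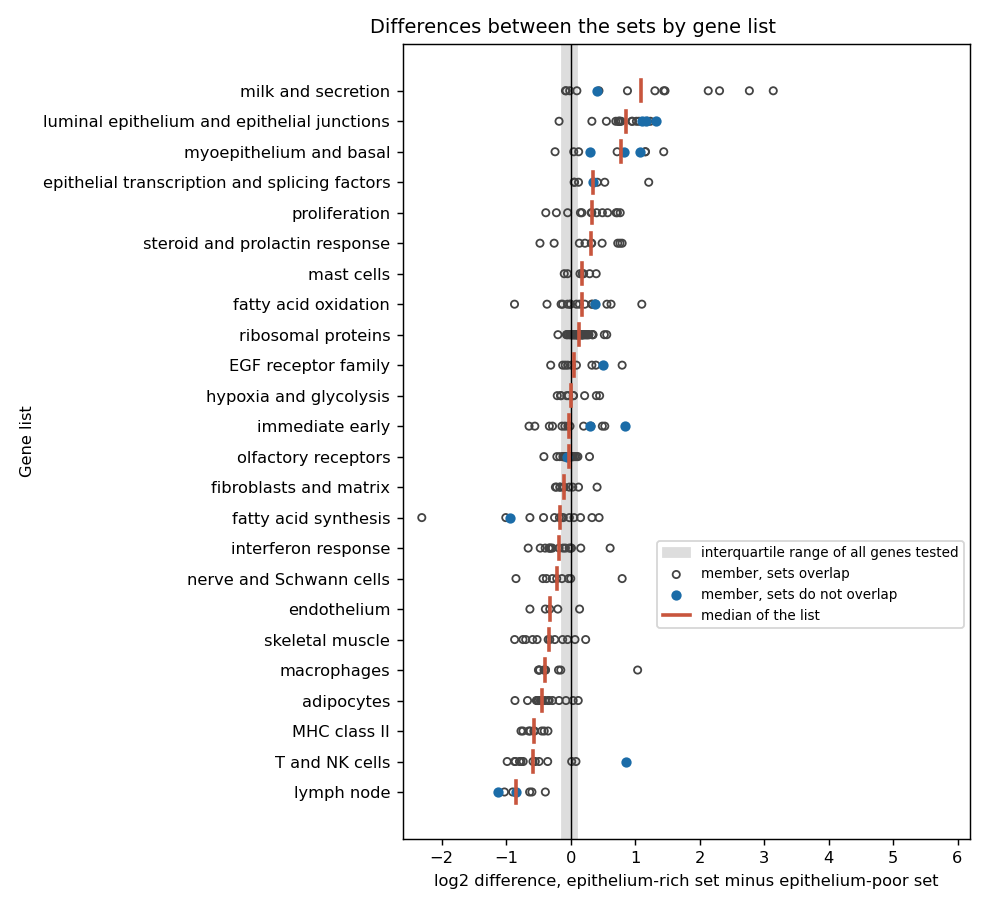
Log2 difference between the sets for each tested gene of a list (circles; filled where the 4 values of one set all lie outside those of the other), with the list median (bar) and the interquartile range of all 37189 genes tested (grey). Milk, luminal and basal lists have medians of 1.09, 0.87 and 0.78, and the lymph node list the lowest, -0.84.

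Stromal lists other than fat had mostly lower values in the epithelium-rich set. Of 10 fibroblast and matrix genes, 7 had a lower value with a median of -0.11, a sign that turned to 0.23 with the authors' deposited values and to 0.20 without LC normal 1. Dcn, the proteoglycan decorin, and Sparc, a matrix glycoprotein, both differed by -0.16; both were higher by 0.22 and 0.16 on the processed-signal scale, and LC normal 1 had their highest levels, 15.53 and 18.13. Lum, a related proteoglycan, was at 0.41 (SE 0.44). Of 5 endothelial genes, 4 had a lower value, with a median of -0.32 (-0.10 without LC normal 1), with Kdr, a VEGF receptor, at -0.63 (SE 0.34) and Cldn5, a vascular claudin, at -0.39. Of 9 nerve and Schwann cell genes, 7 had a lower value, with a median of -0.21 (-0.06 without LC normal 1 and LC normal 3), with Mbp at -0.28 and Mag at -0.21, both myelin proteins. Of 12 skeletal muscle genes, 10 had a lower value, with a median of -0.33 (-0.04 without OR normal 2 and -0.75 without OP normal 2). OR normal 2 stood above all others with a list mean of 9.17 against 7.57 to 8.03. In OR normal 2, Pvalb, a calcium buffer of fast fibres, was 8.11, and Tnnt3, a fast troponin, was 9.49. Of the 4 skin keratin and envelope genes tested, 3 had a higher value (median 0.15). Among them were Krt15, a keratin also of basal mammary cells, at 1.49 (SE 0.54) and Krt1 at 0.21, both without overlap. The level of Krt1 was low, 6.70 to 7.06.

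The immune lists turned mainly on LC normal 3. All 7 tested lymph node genes had a lower value in the epithelium-rich set (median -0.84), and their mean was 11.81 in LC normal 3 against 8.87 to 9.30 in the other 7 tissues. Without that tissue the median was -0.10. Ltb, the lymphotoxin subunit needed for lymph node formation, was 15.03 there and 10.36 to 11.15 elsewhere. Madcam1, a homing receptor ligand, and Fcer2, the low-affinity IgE receptor, did not follow that tissue alone; their differences were -0.39 (SE 0.15) and -0.60 (SE 0.23). T and NK cell genes (10 of 13 lower, median -0.58) likewise averaged 11.01 in LC normal 3 against 7.91 to 8.48, and without it the median was 0.20. Cd79b, part of the B cell receptor, was 13.0 in LC normal 3 and 6.89 to 7.72 in the other 7. The 3 genes of B and plasma cells had a median of -0.44, with Mzb1 at -0.44. Mzb1 was 8.13 in LC normal 3 and low elsewhere, 6.62 to 6.91. The part of lymphoid tissue in the differences between the sets was not tested.

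Of the immune lists, Gzma and Cd14 were the 2 genes with a higher value at an unadjusted p under 0.05, against the direction of their lists. Gzma, granzyme A, was 10.76, 10.22, 10.62 and 10.44 in the epithelium-rich set and 10.22, 10.00, 9.74 and 8.64 in the other, and was not high in LC normal 3. Cd14, the endotoxin coreceptor, was 14.77 to 15.81 against 13.31 to 14.94, a difference of 1.04 (SE 0.42), and its second probe gave 1.16. The other 9 of 10 macrophage genes had lower values (list median -0.40), with Cd68 at -0.49 and Tyrobp at -0.40. Without LC normal 1 and LC normal 3 the macrophage median was 0.33. All 9 MHC class II genes had lower values (median -0.57), with RT1-DOb at -0.77 and the regulator Ciita at -0.65; LC normal 3 had the highest mean, 12.67, and without both tissues the median was 0.10. The 7 mast cell genes had a median of 0.18 (0.83 without both tissues, and -0.61 with the sets drawn on the quantile scale), with Tpsb2, a tryptase, at 0.40.

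The remaining lists gave small medians. Proliferation genes had a median of 0.33 over 13 genes, with LC normal 2 highest at 9.54 against 7.59 to 8.70; in that tissue the mitotic kinase Cdk1 was 12.18 and the mitotic activator Cdc20 was 11.01, while Rrm1, a ribonucleotide reductase subunit, differed by -0.38, with -0.05 and -0.01 for its other probes. Without LC normal 2 the median was -0.04. Interferon genes had a median of -0.18 over 15 genes, with Usp18 at -0.66 (-0.17 with its other probe), Gbp2 at -0.47 and Rsad2 at 0.61, though the other probe of Rsad2 gave -0.04. Immediate early genes had a median of -0.02 over 14, with Nr4a2, an orphan nuclear receptor, at 0.30 (SE 0.07) and Ier3 at 0.85 (SE 0.31), both without overlap. Genes of hypoxia and glycolysis had a median of 0.01 over 10, with Pfkl at 0.45 and Hk2 at -0.16. As references, 64 ribosomal protein genes had a median of 0.13 and 37 olfactory receptor genes, whose signals lie near the floor, one of -0.03. Igf1, a growth factor of the stroma, differed by -0.36 with its brightest probe, but 2 of its 3 other probes gave small positive values, 0.10 and 0.03.

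Whether in a list or not, the genes with a symbol and the smallest p-values in each direction did not overlap between the sets. None of them passed the adjusted test. Csrp1, a LIM protein of the actin cytoskeleton, was 13.41, 13.28, 13.17 and 13.35 in the epithelium-rich set and 12.68, 12.77, 12.57 and 12.57 in the other. Its difference of 0.65 (SE 0.08) had the smallest p of all genes with a symbol (adjusted p = 0.678), and was 0.77, 0.52 and 0.66 on the 3 slides. Aqp3, a water and glycerol channel, was 8.87, 9.16, 8.57 and 9.68 against 7.97, 7.37, 7.15 and 6.71, a difference of 1.77 (SE 0.32; adjusted p = 0.815). With the sets drawn on the quantile scale, Csrp1 differed by 0.37 and Aqp3 by 0.61, both with overlap. Within the epithelium-rich set neither followed the score: OP normal 1, the lowest of that set by score, had the highest Aqp3. In the epithelium-poor set Aqp3 fell in the order of the score, and Csrp1 did not.

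The other genes of that rank on the higher side were Bex2 at 1.29, Krt17 (above), Megf6 at 0.79, the junctional adhesion molecule Jam3 at 0.59, the synaptotagmin Syt5 at 0.51, the sarcosine dehydrogenase Sardh at 0.49, Snai2 (above) and Tpra1 at 0.28. On the lower side, besides Fasn, they included the T cell kinase Txk at -0.74, the creatine-pathway enzyme Gatm at -0.59, the lysosomal regulator Tfeb at -0.58, the adhesion molecule Cntn6 at -0.57, Sdad1 at -0.42, the kinetochore protein Zwint at -0.41, the chromatin protein Hmga1 at -0.38 and the dynein regulator Ndel1 at -0.36. The second probe of Tfeb gave -0.08. With the sets drawn on the quantile scale, the 20 genes of smallest p kept their sign, but 17 had differences over 1.5 times smaller and 0 were without overlap (Krt17 was at 0.49). Each of the 20 except Csrp1 (0.678) had an adjusted p of 0.815 in limma.

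**Figure D4:**
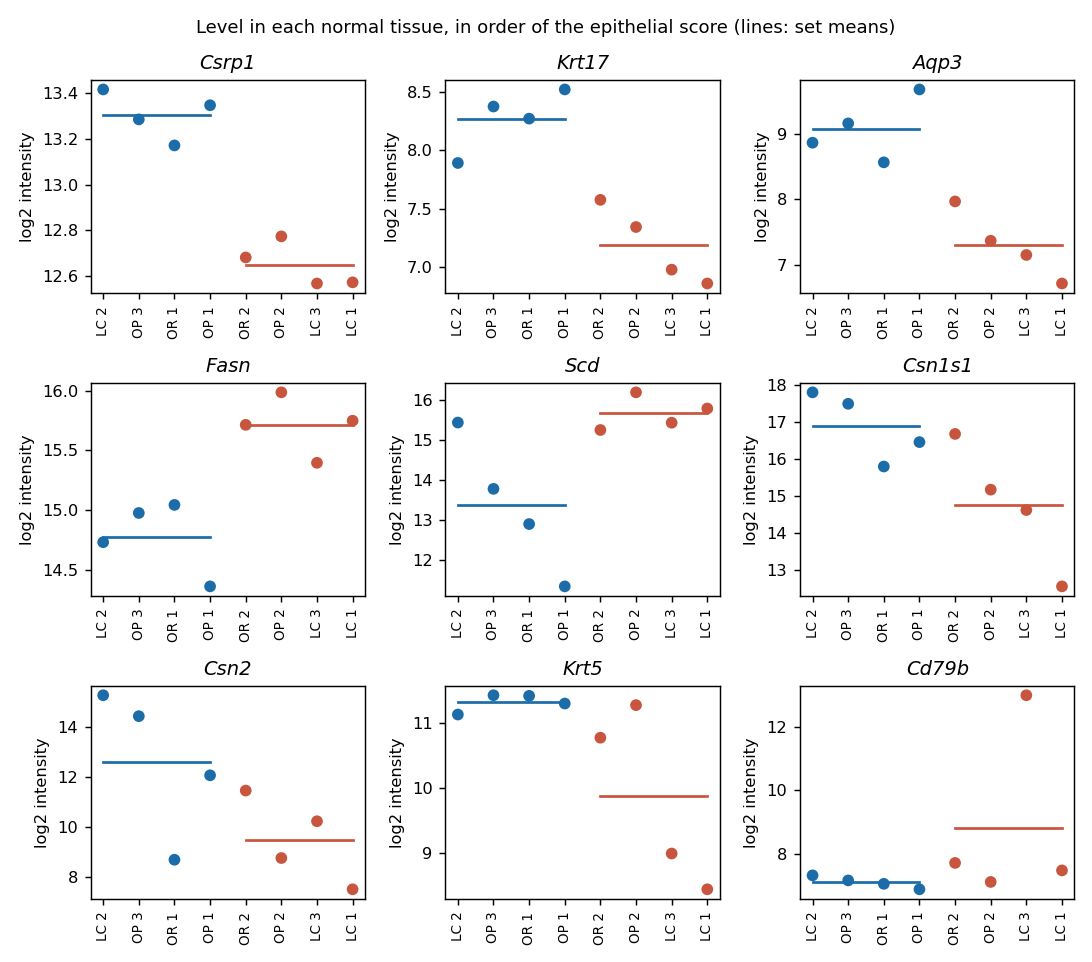
Level of 9 genes (log2 intensity, 1 point per tissue, in order of the score; blue, epithelium-rich set; red, epithelium-poor set; lines, set means; each panel has its own axis). Csrp1, Krt17, Aqp3 and Fasn do not overlap between sets, while Krt5 and Cd79b differ through LC normal 1 and LC normal 3, or LC normal 3 alone.

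Because the scores were spread unevenly, the score itself was also fitted in place of the sets, as an alternative that uses the distance between tissues. Here 324 genes (0.871%) rose with the score and 44 (0.118%) fell, at an adjusted p under 0.05 in limma; 163 of these 368 had a symbol, 150 rising and 13 falling. These calls depended on LC normal 1: without it 0 genes passed the adjusted threshold (3271 at an unadjusted p under 0.05). All 368 kept their sign without it, and the median ratio of the slope without it to the slope with all was 1.01. Of the 368, 94.0% had an unadjusted p under 0.05 in limma without it, against 8.8% of all genes. The 368 genes were chosen with that tissue included, so their slopes without it, given below for some, are a description and no independent check. Without LC normal 3 there were 3244 calls (8.72%), which included all 368. With both left out, 0 passed, and 358 of the 368 kept their sign. Scores and genes came from the same arrays, so errors of an array enter both sides.

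The genes that rose with the score, named here after their values were seen, were led by genes outside the lists. C14h4orf19 was 13.09, 12.64, 12.32 and 12.16 in the epithelium-rich set and 12.23, 12.06, 11.03 and 10.03 in the other, in the order of the score, with a slope of 0.89 (SE 0.05) log2 units per unit of the score (limma adjusted p = 0.00147). Tpd52l1, a member of the tumour protein D52 family, had a slope of 1.13 (SE 0.07), Stap2, a signalling adaptor, 0.62 (SE 0.04), and Vtcn1, the B7-family protein B7-H4, 0.82 (SE 0.05). Gjb2, the gap junction protein connexin 26, fell from 14.36 in OP normal 3 to 10.42 in LC normal 1, with a slope of 1.18 (SE 0.10). Junction and polarity genes among them included F11r, a tight junction adhesion molecule (0.43), Crb3, an apical polarity protein (0.84), Cldn3 (0.87), Cldn7 (1.01) and Ocln (1.0). The slope of Ocln was 0.50 and that of Cldn7 0.70 without LC normal 1, and without LC normal 3 as well that of Cldn3 was 0.26. That of Gjb2 was larger without LC normal 1, at 1.46.

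Of the lists, the calls held 8 of 18 luminal genes, 5 of 14 milk genes, 2 of 10 basal genes and 1 of 7 epithelial factors, against 0.871% of all genes. The score is a mean of 3 epithelial genes, so genes of the same cells can follow it by construction. These counts are thus a description and no test. The milk genes were Csn1s1, Csn3, Lalba, Wap and Lcn2, with slopes of 1.52, 1.07, 1.15, 1.92 and 1.03, and the basal genes were Tagln (0.52) and Krt5 (1.01). The 1 factor was Tfap2c (1.0). Without LC normal 1 and LC normal 3 the slopes of Krt5, Lcn2 and Lalba were 0.16, 0.33 and 0.72, that of Wap was 2.93, and that of Tfap2c was -0.08. Cd14 (0.73) and Gzma (0.59) rose as well. Reg3b, a secreted antibacterial lectin, had a slope of 2.17 (SE 0.24), going from 14.60 in LC normal 2 to 6.75 in LC normal 1, and 1.2 without LC normal 1. No adipocyte, matrix, vessel or lymph node gene of the lists was called in either direction. Of the 64 ribosomal protein genes 1 was called.

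The 13 named genes that fell with the score moved less. Ptafr, the receptor for platelet-activating factor, was 10.97, 10.89, 10.93 and 11.39 in the epithelium-rich set and 11.01, 11.14, 12.02 and 12.20 in the other, a slope of -0.44 (SE 0.07; limma adjusted p = 0.0427) that was -0.24 without LC normal 1 and LC normal 3. Slco2b1, an organic anion carrier, had a slope of -0.40, and the cyclin Ccnd3 one of -0.27. In all 3 of these, LC normal 1 had the highest value of the 8 tissues.

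**Figure D5:**
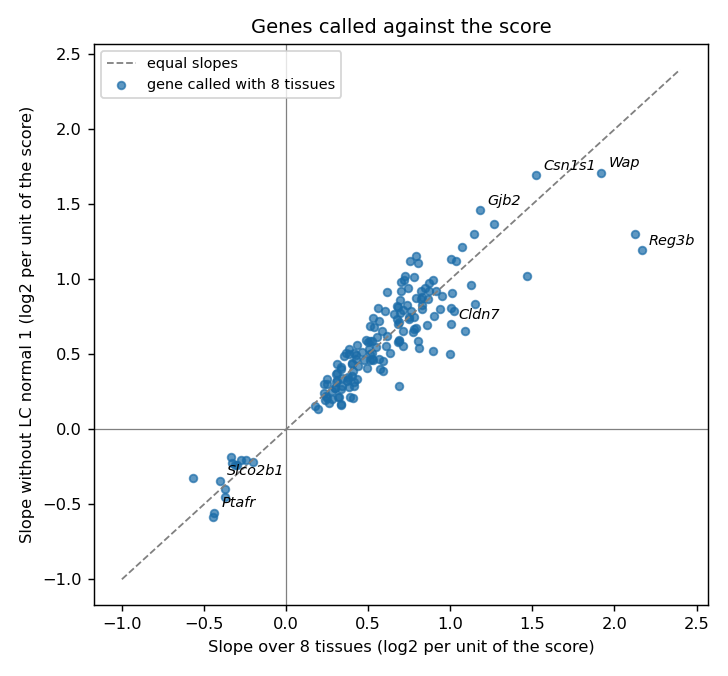
Slope against the score (log2 units per unit of the score) for the 163 named genes called over 8 tissues, with all tissues (x axis) and without LC normal 1 (y axis); the dashed line marks equal slopes. The genes were chosen with LC normal 1 included. Without it Reg3b goes from 2.17 to 1.2 and Ocln from 1.0 to 0.50. Gjb2 goes from 1.18 to 1.46 and Csn1s1 from 1.52 to 1.70. Over all 368 genes called, the median ratio of the slope without it to the slope with all was 1.01.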

How the data were processed

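RNA of 20 mammary samples had been hybridised to 1-colour arrays, 1 per sample. Per the file headers, the scanner files give spot and background intensity and quality marks; the processed signal is an intensity already corrected for background. The submitters' processing notes name Agilent Feature Extraction 10.7.3.1, the headers 9.5.1.1; the design text names RMA. The authors' deposited value table is on a log2 scale with its centring unstated; it matched the log2 processed signal minus the 75th percentile, centred per probe, with r of at least 0.9998 on every array, for 20793 of 20824 entries. Its column medians in normal tissues were 0.03 to 0.24.

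The median spot signal was corrected with normexp (offset 50) and quantile-normalized over 20 arrays in limma 3.58.1 (R 4.3.3). The planned mean spot signal was not used here. Of 41012 probes, 291 with an outlier mark on a normal array and 1756 marked well above background on fewer than 4 of the 8 were left out. The brightest probe stood for a gene with a symbol. Through RefSeq accessions 10835 probes had a symbol and 30177 stayed unnamed. Each unnamed probe that was kept counted as a gene of its own. Benjamini-Hochberg adjustment covered all 37189 genes. The fits were also run on simulated data with independent noise and added differences larger than most seen here. How they do with smaller differences or outlying tissues was not tested. Genes were named by rule: in each direction those past the threshold, filled to 10 by the smallest p; the 2 to 4 smallest p in each list; and 9 fixed genes; a few genes the rule names are not reported here. The score, the 27 lists and the rule were chosen with earlier results of these data known. The labels do not say that tissues came from separate rats, so the spread behind each p-value may be technical. The number of arrays limits the precision. Figures were drawn in Python 3.11.15 with matplotlib 3.10.9.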

Additional observations from a re-analysis of the deposited data

Results flagged for a closer look

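In each of 26 measures (24 list means, the score and the share of probes well above background), the highest or lowest of the 8 normal tissues was set against the other 7 by Dixon's gap criterion, which chance meets in about 1 of 20 groups. It was met in 5. LC normal 3 stood above the others for T and NK cell genes (list mean 11.01 against 7.91 to 8.48), lymph node genes (11.81 against 8.87 to 9.30) and MHC class II genes (12.67 against 10.17 to 11.11). OR normal 2 stood above the others for skeletal muscle genes (9.17 against 7.57 to 8.03), and LC normal 1 stood below them for ribosomal protein genes (15.68 against 16.15 to 16.42). All 3 tissues were in the epithelium-poor set.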

How the results depend on the processing

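The count of genes called between the sets stayed at 0 with every other scaling, filter, covariate and block run, and without each tissue in turn. It was 8 with all 20 arrays in 1 fit, 368 with the score as covariate, 334 with the quantile-scale score (238 shared) and 3244 with the score but without LC normal 3. With a replicate block 0 were called (3748 at an unadjusted p under 0.05), and with the slide as a block 0 (3700). Same-numbered tissues correlated from -0.34 to 0.29 in their deviations. With 2 or 3 tissues per group, these correlations cannot decide whether the numbers pair the tissues. The scan-day block was not run, since all 8 arrays share 1 day. The difference in the share of probes well above background ran from -3.55 to -0.29 over the left-out tissues.

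List medians moved by at least 1 SD in 22 instances. Without LC normal 1 and LC normal 3 they were 0.21 (luminal), 0.20 (milk), 0.20 (basal), -0.0022 (steroid response), 0.33 (macrophages), 0.83 (mast cells) and 0.090 (interferon). With processed signal minus the 75th percentile they were 0.49 (oxidation), 0.18 (hypoxia), 0.52 (ribosomal) and -0.42 (olfactory); with normexp so scaled -0.17 (adipocytes), 0.38 (oxidation), 0.17 (hypoxia), 0.49 (ribosomal) and -0.086 (olfactory); with the authors' values 0.52 (oxidation), 0.19 (immediate early), 0.19 (hypoxia) and 0.54 (ribosomal); with quantile-scale sets 0.0020 (oxidation) and -0.61 (mast cells).

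Of 88 named genes, 70 kept their direction under the 27 alternatives run and 8 passed with the score as covariate. Signs here are those of the raw differences. On the processed-signal scale the negative value of Ms4a2 below lies above the median of all genes, -0.22. Sign changed on the 3 scalings in that order for Dcn (0.22, 0.18, 0.24), Sparc (0.16, 0.14, 0.18) and Pkm (0.079, 0.043, 0.093), with processed signal for Igf1 (0.019; authors' values 0.033) and Ms4a2 (-0.081), and with quantile-scale sets for Lpl (0.10), Gpd1 (0.052), Scd (0.12), Ms4a2 (-0.10), Tpsb2 (-0.61; -0.16 against the score), Rsad2 (-0.034) and Pgr (-0.031). Without both lean tissues it changed for Dcn (0.20), Cd68 (0.15), Tyrobp (0.091) and Pgr (-0.0058); over the left-out tissues Dcn ran from -0.37 to 0.14 and Sparc from -0.55 to 0.075. With the score but without LC normal 1 it changed for Dcn (0.0069), Sparc (0.34), Ms4a2 (-0.087), Adipoq (0.058) and Igf1 (0.26), and without both lean tissues for Tfap2c (-0.085), Krt14 (-0.17), Dcn (0.065), Tnni1 (0.0018), Cd68 (0.0031), Tyrobp (0.21), Cd4 (0.053) and Pgr (-0.23). It also changed for Tpsb2 (-0.15) without LC normal 3, and with the quantile-scale score for Tpsb2 (-0.33), Ms4a2 (-0.037) and Rsad2 (-0.065). The cause was not tested. Signal over background limits weak genes such as Pgr.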

Other observations

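Fitted with all 20 arrays, with the cancers as a further group that adds to the estimate of the spread, 8 genes passed an adjusted p under 0.05 in limma between the sets, 5 higher and 3 lower in the epithelium-rich set. The single one with a symbol was Kif7, a kinesin-like protein of hedgehog signalling, at 0.97 (SE 0.15; adjusted p = 0.0386), which was singled out after its value was seen and lies outside the naming rule. The other 7 probes could not be named here.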
